A study of Mus musculus with 8 samples.

Results

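Cytosolic ribosomal protein genes, which encode the protein part of the ribosomes that translate nuclear mRNAs, were examined in mouse tibialis anterior muscle after transfection with spermine oxidase. The members were all genes on the array whose symbol starts with Rpl or Rps followed by a digit, with Rplp0, Rplp1, Rplp2 and Rpsa, and without the Rps6k kinases. This gave 66 of the 16593 genes measured, each read from its brightest probe by the mean over the 8 arrays. They comprised 35 genes of the large subunit, 23 of the small subunit and 6 paralogs (Rpl3l, Rpl7l1, Rpl22l1, Rpl36al, Rpl39l and Rps27l). The other 2, Rps19bp1, whose product regulates the deacetylase SIRT1, and Rps23rg1, a retrogene copied from Rps23, carry the prefix without encoding a standard subunit protein.

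The muscles came from male C57BL/6 mice, a common inbred strain, aged 8 weeks. They were taken 7 days after transfection with a plasmid for spermine oxidase (4 muscles) or with a control plasmid (4 muscles), and all carried a plasmid. Spermine oxidase, made from Smox, oxidises spermine to spermidine. No source used here gives the promoter of the plasmid or the share of fibres that took it up. Nothing in the labels ties a muscle to an animal of its own, and each p-value therefore measures only the spread among these 8 muscles, some of which may be technical.

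The ribosome has a small subunit, which reads the mRNA, and a large subunit, which joins amino acids. Their proteins are needed in equal numbers, and most of their mRNAs begin with a run of pyrimidines, the terminal oligopyrimidine tract, through which mTORC1 and LARP1 control their translation together. Skeletal muscle makes in addition RPL3L, a paralog of the large-subunit protein RPL3 that takes its place in the ribosomes of mature striated muscle, while RPL3 is the form of dividing cells and immature fibres.

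The sequences around the annotated start are shown for the 6 members with a signal well above the low end of the scale whose groups did not overlap. Of these, 5 were lower and Rpl3l was higher after spermine oxidase. The stretches show which hold a long run of pyrimidines there. They are RefSeq sequences of build GRCm38.p6, from 50 bases before the start to 25 bases from it onwards, on the strand of the gene. Capitals mark a run of 8 or more pyrimidines in the ribosomal protein genes and the E-box CAGCTG in Rpl3l. Rpl3l has another annotated start, not shown, whose stretch of the same length holds no CAGCTG. Rpl3 was not matched.
Rpl3l (chr17:24727776-24727850, plus strand): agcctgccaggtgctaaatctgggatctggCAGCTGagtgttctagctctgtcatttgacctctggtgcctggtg
Rps6 (chr4:86857343-86857417, minus strand): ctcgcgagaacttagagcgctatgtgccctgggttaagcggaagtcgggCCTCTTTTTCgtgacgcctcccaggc
Rpl28 (chr7:4792915-4792989, plus strand): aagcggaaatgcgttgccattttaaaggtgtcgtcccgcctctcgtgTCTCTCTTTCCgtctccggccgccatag
Rpl27 (chr11:101442195-101442269, plus strand): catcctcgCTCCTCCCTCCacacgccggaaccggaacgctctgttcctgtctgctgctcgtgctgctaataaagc
Rps3 (chr7:99483685-99483759, minus strand): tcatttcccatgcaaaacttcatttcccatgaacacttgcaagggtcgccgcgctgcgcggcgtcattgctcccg
Rpl12 (chr2:32961662-32961736, plus strand): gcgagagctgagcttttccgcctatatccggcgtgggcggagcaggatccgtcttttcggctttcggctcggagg

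In Rps6 and Rpl28 the run of pyrimidines spans the annotated start, in Rpl27 it lies upstream of it and outside the range searched for the shares that follow, and Rps3, Rpl12 and Rpl3l have no run of that length in the stretch shown. Shorter runs, such as tcttttc just after the annotated start of Rpl12, are not marked. The marks therefore do not settle which members share the terminal tract. Of the 66 members, 57 were in the RefSeq promoter table, with 68 windows reaching from 250 bases before to 50 after a start. A run of at least 8 pyrimidines on the gene's strand, searched from 30 bases before the start onwards, was found in 69.1% of the member windows and in 29.0% of all 32851 windows. CGGAAG, the core bound by ETS factors, stood on either strand in 61.8% of the member windows and in 16.9% of all windows. The E-boxes CAGCTG and CACGTG, which read the same on both strands, stood in 4.41% and 11.8% of the member windows, and in 16.3% and 7.15% of all windows. Some genes had several windows, and a match describes letters, not binding.

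All values below are log2 signals of Illumina bead arrays, and differences are spermine oxidase minus control with limma's standard error. Each array had a median of 8.33, and single values ran from 8.098 to 15.29. Members were among the brightest genes, with a median signal of 13.32 against 8.37 over all genes. For 12 members the brightest probe read under 9, close to the low end: Rpl6, Rpl14, Rpl17, Rpl21, Rpl22l1, Rpl39l, Rplp2, Rps15a, Rps19bp1, Rps23, Rps23rg1 and Rpsa. Rps15a, at 8.70, was the brightest below this level and Rplp0, at 9.54, the dimmest above it. Many ribosomal protein genes have processed pseudogenes of nearly the same sequence, and a probe may read several copies. The fibre genes Acta1, Ckm, Myh4 and the others of a list of 10, all well above the low end, averaged 14.66 to 14.76 in spermine oxidase muscles and 14.62 to 14.73 in control muscles. Smox itself was higher in every spermine oxidase muscle than in any control muscle on all 5 of its probes. On the brightest it averaged 11.94 ± 0.47 in spermine oxidase muscles and 10.78 ± 0.43 in control muscles (SD, n = 4 each), a difference of 1.16 ± 0.28 (2.23-fold, exact permutation p = 0.0286, limma adjusted p = 0.233). The contrast was wider on 3 probes that are dim in control muscles, such as ILMN_2608052, with a mean of 12.27 in spermine oxidase muscles and 8.83 in control muscles.

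Most ribosomal protein genes read slightly lower after spermine oxidase. Of the 66 members, 53 were lower and 13 higher, with a median difference of -0.062, and 80.3% of members were below 0 against 50.8% of all genes. The median over all genes was -0.00064. Among the 54 members with a signal of 9 or more, 48 were lower and 6 higher, with a median of -0.070, against 53% of all genes at that level. Of the 39 members at 13 or more, 34 were lower, against 49.3% of the 290 genes as bright. The 12 members under 9 were split, with 5 lower and 7 higher.

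No member passed the threshold over all genes: 0 of 66 had a limma adjusted p under 0.05, and 0% of all genes did. At an unadjusted p under 0.05 there were 9 lower members, where 4.72% of all genes were lower at that threshold (9.1% of genes with a signal of 9 or more), and 1 higher member, Rpl3l, where 6.33% of all genes were higher. The 9 were Rpl12, Rpl13a, Rpl19, Rpl27, Rpl28, Rpl35, Rps3, Rps6 and Rps16. Their number was 4, 15 and 5 without spermine oxidase replicates 1, 2 and 3, each left out alone, and 2 with an offset of 16 on the linear scale. The shares of all genes under these settings are not given here, so these counts have no background to be read against. The groups did not overlap for 6 lower members, Rpl12, Rpl27, Rpl28, Rplp2, Rps3 and Rps6, where 2.51% of all genes were separated in that direction (3.81% of genes with a signal of 9 or more), and for Rpl3l alone among the higher, where 3.66% were. Fewer cells of a type and less RNA per cell cannot be told apart in these whole-muscle samples.

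**Figure D1:**
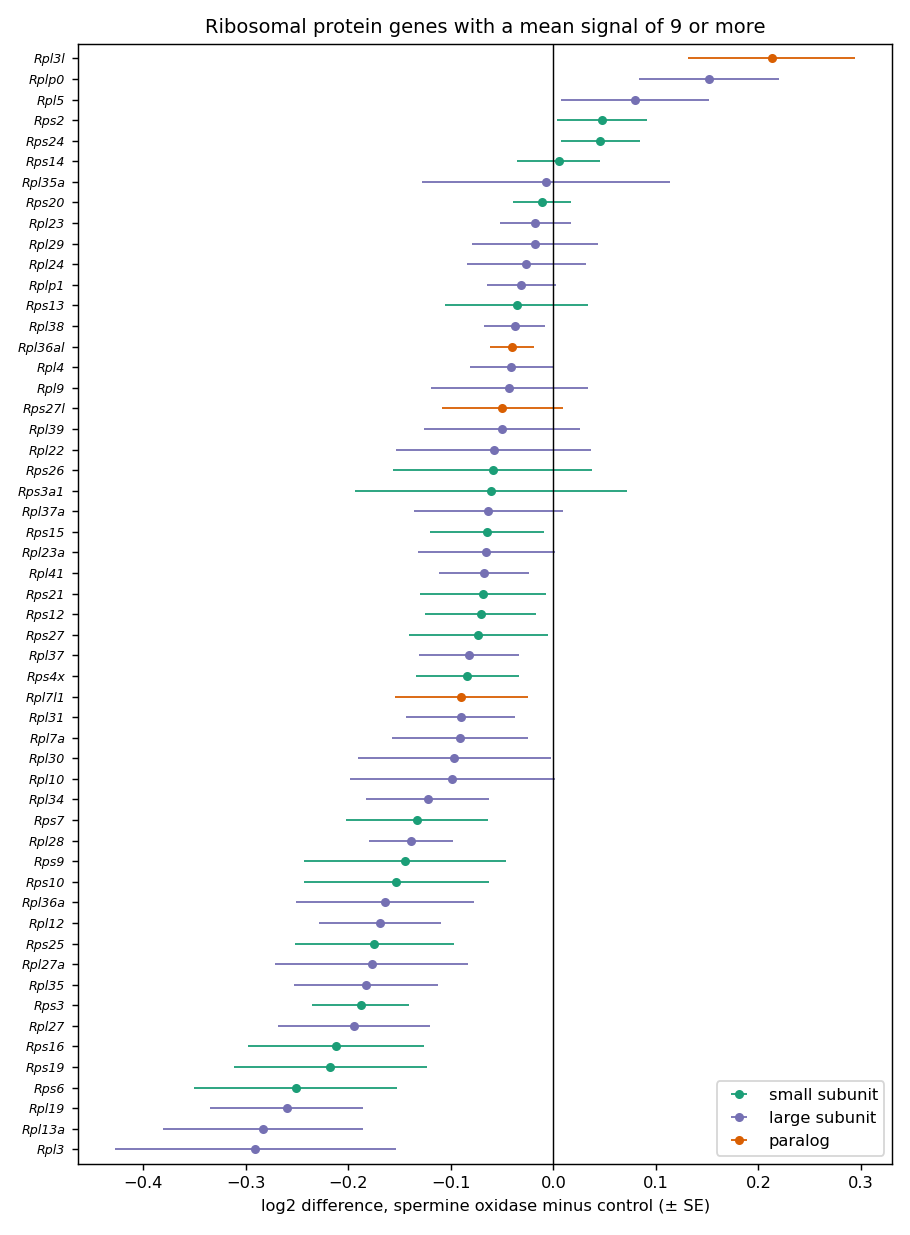
Log2 difference, spermine oxidase minus control, with its standard error from limma (4 muscles in each group), for the 54 members with a mean signal of 9 or more. Points to the left are lower after spermine oxidase, as 48 members are, and Rpl3l lies farthest to the right and Rpl3 farthest to the left.

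Over all 8 muscles the highest and lowest differences of the family were those of the paralogs Rpl3l and Rpl3. This ranking did not hold without control replicate 2, control replicate 4 or spermine oxidase replicate 1, each left out alone. Rpl3l read 14.67, 14.62, 14.60 and 14.62 in the spermine oxidase muscles, against 14.54, 14.53, 14.44 and 14.15 in the control muscles. All 4 spermine oxidase muscles lay above all 4 control muscles, and control replicate 4 lay well below the other controls. The difference was 0.21 ± 0.08 (1.16-fold), the highest of the 66, with an exact two-sided permutation p = 0.0286, the smallest that 70 splits can give, and a limma adjusted p = 0.394. Without control replicate 4 it was 0.126, below Rplp0 (0.16) and Rpl5 (0.132).

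Rpl3, a large-subunit protein next to the site of peptide bond formation, read 13.23, 13.82, 13.58 and 13.72 in the spermine oxidase muscles, against 13.74, 13.81, 13.84 and 14.13 in the control muscles. The groups overlapped through spermine oxidase replicate 2, with replicate 1 the lowest and control replicate 4 the highest. The difference was -0.29 ± 0.14 (0.818-fold), the lowest of the 66, with an exact permutation p = 0.0857 and a limma adjusted p = 0.505. It was -0.17 without spermine oxidase replicate 1, where Rpl13a was at -0.24, and -0.21 without control replicate 4, where Rpl19 was at -0.25. Without both of these muscles it was -0.089. Without control replicate 2 alone it was -0.31, where Rpl13a was at -0.33.

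Within each muscle, the Rpl3l signal minus the Rpl3 signal was 1.44, 0.80, 1.02 and 0.90 in the spermine oxidase muscles, against 0.80, 0.72, 0.60 and 0.02 in the control muscles. Signals of different probes are on different scales, so only the shift between muscles is meaningful. The groups met at 0.80, where spermine oxidase replicate 2 and control replicate 1 had nearly the same value. The shift between group means was 0.50 ± 0.22 (SE), with an exact two-sided permutation p = 0.0571, or 0.286 adjusted over the 5 paralog pairs compared. It was 0.33 without control replicate 4, and 0.20 without that muscle and spermine oxidase replicate 1.

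**Figure D2:**
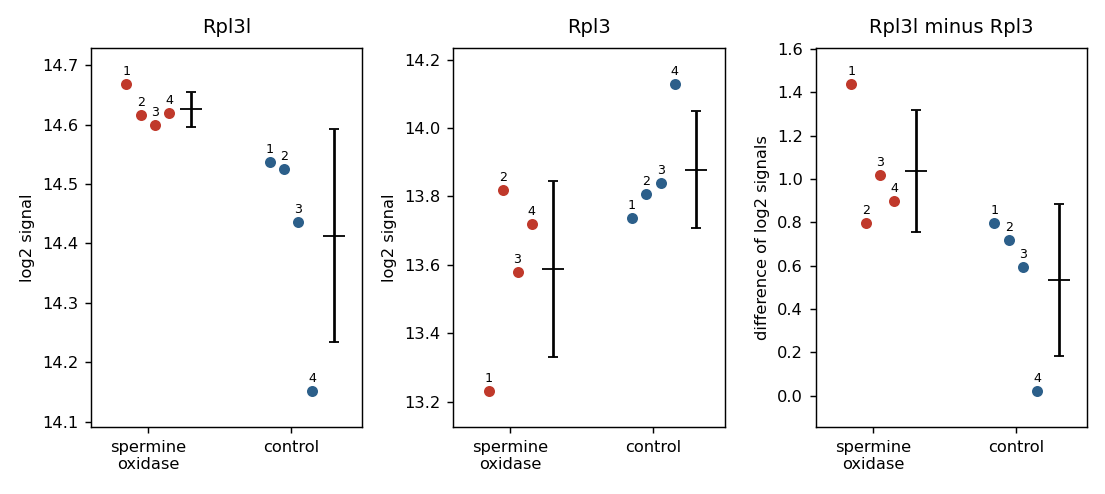
Log2 signals of Rpl3l and Rpl3 and their difference within each muscle, with replicate numbers beside the points and the mean and SD of the 4 muscles as a bar. Rpl3l separated the groups, while Rpl3 overlapped and the difference between both met at 0.80.

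The shifts of the other paralogs against their main genes were smaller. Rps27l, which p53 is known to induce, averaged 13.77 ± 0.12 in spermine oxidase muscles and 13.82 ± 0.05 in control muscles (SD, n = 4 each), and its shift against Rps27, a small-subunit zinc-finger protein, was 0.023 ± 0.063 (SE). Rpl36al averaged 13.68 ± 0.03 in spermine oxidase muscles and 13.72 ± 0.02 in control muscles, and its shift against Rpl36a was 0.12 ± 0.11. Rpl22l1 and Rpl39l lay near the low end of the scale, at means of 8.52 and 8.22 over all muscles and their shifts against Rpl22 (-0.0069 ± 0.12) and Rpl39 (0.051 ± 0.086) were within their standard errors. The exact permutation p-values of these 4 pairs were 0.343 to 0.971. Rpl7l1, a nucleolar relative of Rpl7, averaged 10.25 ± 0.04 in spermine oxidase muscles and 10.34 ± 0.14 in control muscles.

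Small-subunit genes were lower in 18 of 23 cases, with a median of -0.069. Rps6, the classical substrate of the S6 kinases, read 11.84, 12.09, 11.98 and 11.92 in the spermine oxidase muscles, against 12.10, 12.10, 12.14 and 12.50 in the control muscles. The groups were separated narrowly, by less than 0.01 between spermine oxidase replicate 2 and the lowest control, and control replicate 4 stood above the rest. The difference was -0.25 ± 0.10 (0.840-fold, limma adjusted p = 0.401).

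Rps3, which lines the channel where mRNA enters the ribosome, read 12.92, 12.96, 13.01 and 12.99 in the spermine oxidase muscles, against 13.05, 13.21, 13.12 and 13.26 in the control muscles. Every control muscle lay above every spermine oxidase muscle. The difference was -0.19 ± 0.05 (0.878-fold), with the smallest limma adjusted p of the family, 0.252, and an exact permutation p = 0.0286. A dimmer Rps3 probe differed by -0.13 ± 0.11.

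Rps19, whose human counterpart is mutated in Diamond-Blackfan anaemia, averaged 13.91 ± 0.13 in spermine oxidase muscles and 14.13 ± 0.17 in control muscles (SD, n = 4 each). Its difference was -0.22 ± 0.09 with overlap (exact permutation p = 0.0857). Rps16, another small-subunit protein, averaged 13.32 ± 0.13 in spermine oxidase muscles and 13.53 ± 0.14 in control muscles. Its difference was -0.21 ± 0.09, also with overlap and the same exact permutation p. Rps2 (0.047 ± 0.044) and Rps24 (0.046 ± 0.039) were slightly higher, and a dim second Rps24 probe differed by -0.14 ± 0.06. Rpsa, also known as the laminin receptor precursor, lay near the low end at 8.28 in spermine oxidase muscles and 8.34 in control muscles.

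Large-subunit genes were lower in 30 of 35 cases, with a median of -0.064. Rpl27 read 13.66, 13.87, 13.85 and 13.89 in the spermine oxidase muscles, against 13.92, 13.98, 13.95 and 14.20 in the control muscles. The groups did not overlap, and spermine oxidase replicate 1 was the lowest and control replicate 4 the highest. The difference was -0.19 ± 0.07 (0.874-fold, limma adjusted p = 0.390).

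Rpl12, at the base of the stalk that recruits translation factors, read 13.16, 13.31, 13.25 and 13.31 in the spermine oxidase muscles, against 13.33, 13.37, 13.43 and 13.58 in the control muscles. The groups were adjacent without overlapping. The difference was -0.17 ± 0.06 (0.889-fold, limma adjusted p = 0.365).

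Rpl28 read 13.55, 13.63, 13.63 and 13.69 in the spermine oxidase muscles, against 13.71, 13.77, 13.73 and 13.86 in the control muscles. The groups lay close together without overlapping, at 13.69 for the highest spermine oxidase muscle and 13.71 for the lowest control muscle. The difference was -0.14 ± 0.04 (0.908-fold, limma adjusted p = 0.291).

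Rpl19 and Rpl13a, both often used as reference genes in quantitative PCR, differed more but overlapped. Rpl19 averaged 11.50 ± 0.15 in spermine oxidase muscles and 11.76 ± 0.08 in control muscles (SD, n = 4 each), a difference of -0.26 ± 0.07 with a limma adjusted p = 0.285. Rpl13a, known also for silencing inflammatory mRNAs, averaged 10.02 ± 0.13 in spermine oxidase muscles and 10.30 ± 0.18 in control muscles, a difference of -0.28 ± 0.10 with a limma adjusted p = 0.359. In each, only spermine oxidase replicate 2 reached into the range of the controls.

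The stalk proteins did not share one direction. Rplp0, the scaffold of the stalk, averaged 9.62 ± 0.12 in spermine oxidase muscles and 9.47 ± 0.10 in control muscles (SD, n = 4 each), a difference of 0.15 ± 0.07 with overlap (limma adjusted p = 0.473). Rplp1 averaged 14.89 ± 0.04 in spermine oxidase muscles and 14.92 ± 0.05 in control muscles, near the top of the scale. Rplp2 lay at the low end, at 8.19 in spermine oxidase muscles and 8.21 in control muscles, and its difference, though without overlap, was only -0.025. Rpl5, which can hold back MDM2, the ligase of p53, was higher by 0.080 ± 0.073.

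**Figure D3:**
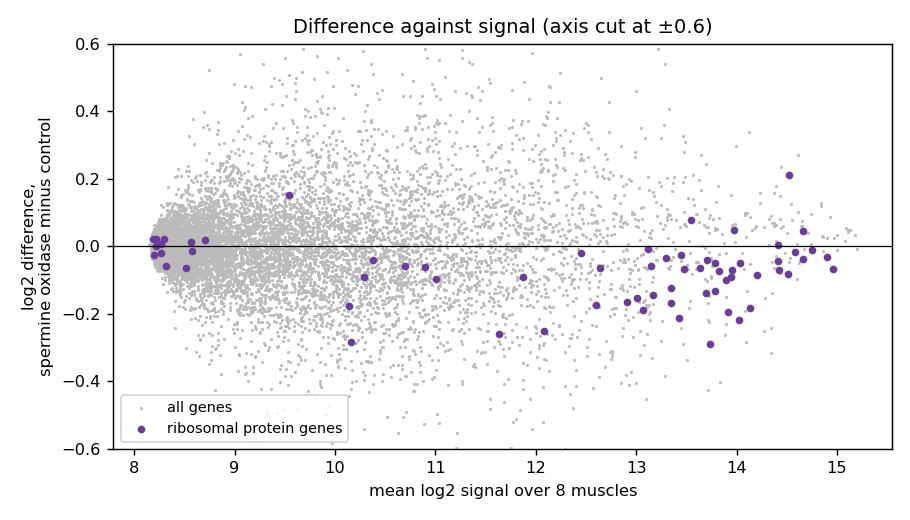
Log2 difference, spermine oxidase minus control, against the mean log2 signal over 8 muscles for all genes (grey) and for the 66 ribosomal protein genes (purple), with the vertical axis cut. Most members lie at 13 or more and below 0, while the 12 members under 9 sit around 0.

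By signal, the median member difference was 0.0035 for the 12 members under 9, -0.091 for 15 members from 9 to 13, -0.073 for the next 31 members and -0.024 for the 8 brightest. The smallest medians lay at both ends of the scale, although the 8 brightest members ran from -0.082 to 0.21, the latter for Rpl3l. Of the 66 members, 15 had more than 1 probe. Rpl31 differed by -0.090 ± 0.053 on its brightest probe and by -0.33 ± 0.12 on a dimmer one, and Rpl23 by -0.018 ± 0.034 on its brightest and by -0.14 ± 0.05 on a dimmer one. Besides Rps24, Rpl38 (-0.038 ± 0.029 and 0.056 ± 0.061) and Rpl27a (-0.18 ± 0.09 and 0.017 ± 0.028, the second at the low end) had probes of opposite sign, as did Rplp0 and Rpsa through a probe at the low end.

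The members varied together from muscle to muscle, and 2 muscles lay farthest from the others. The deviation of each of the 54 members with a signal of 9 or more from its own mean over 8 muscles was averaged per muscle. This mean was -0.115, 0.012, -0.064 and -0.0049 in spermine oxidase replicates 1 to 4, against 0.0016, -0.0062, 0.014 and 0.162 in control replicates 1 to 4. Spermine oxidase replicates 2 and 4 thus lay within the range of the controls, spermine oxidase replicates 1 and 3 lay below them, and control replicate 4 lay above all others.

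Control replicate 4 was the highest of the 8 muscles for 39 of the 54 members, and spermine oxidase replicate 1 the lowest for 30. Within the control group, replicate 4 was the highest for 79.6% of the 54 members and for 30.8% of all genes with a signal of 9 or more. Within the spermine oxidase group, replicate 1 was the lowest for 64.8% of these members and for 29.9% of those genes.

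Without control replicate 4, 40 of the 54 members were lower, with a median of -0.039. Without spermine oxidase replicate 1, 45 were lower, with a median of -0.053. Leaving out both muscles was a choice made after seeing the data. Removing the highest control and the lowest spermine oxidase muscle must narrow the difference between the group means. Without them, 32 of the 54 were lower (59.3%, against 52.5% of all genes at that signal) with a median of -0.019, and over all 66 members 38 were lower. The separated members then differed by -0.14 ± 0.04 (Rps3), -0.12 ± 0.05 (Rps6), -0.084 ± 0.033 (Rpl12), -0.083 ± 0.028 (Rpl28), -0.080 ± 0.025 (Rpl27) and 0.11 ± 0.03 (Rpl3l).

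**Figure D4:**
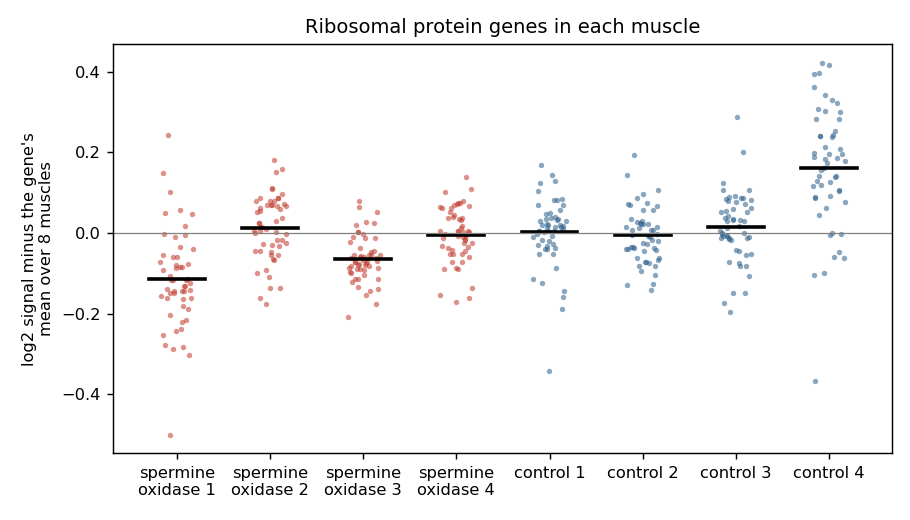
Log2 signal of each of the 54 members with a mean signal of 9 or more, minus the gene's mean over 8 muscles, in each muscle, with the mean of the members as a black line. Control replicate 4 lies highest at 0.162 and spermine oxidase replicate 1 lowest at -0.115, while the other muscles lie between -0.064 and 0.014.

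The same 2 muscles were at the ends of the Smox signal on its brightest probe, ILMN_1247267. It read 12.58, 11.56, 12.02 and 11.60 in spermine oxidase replicates 1 to 4, against 11.15, 10.92, 10.90 and 10.17 in control replicates 1 to 4. Among the spermine oxidase muscles the order of this Smox probe, lowest in replicate 2 and then 4, 3 and 1, was the reverse of the order of the members. The next probe, ILMN_2597030, which also reads well above the low end in control muscles, had the same order.

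The 3 Smox probes that are dim in control muscles ordered the spermine oxidase muscles differently, from replicate 4 through 1 and 3 to 2. ILMN_2608052 read 11.87, 13.29, 12.40 and 11.53 in spermine oxidase replicates 1 to 4, against 9.07, 8.85, 8.90 and 8.52 in control replicates 1 to 4. On these probes the muscle with the most Smox signal, replicate 2, had the highest member mean of its group. On all 5 probes control replicate 4 had the least Smox signal of the controls. With 4 muscles in a group no correlation was computed.

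**Figure D5:**
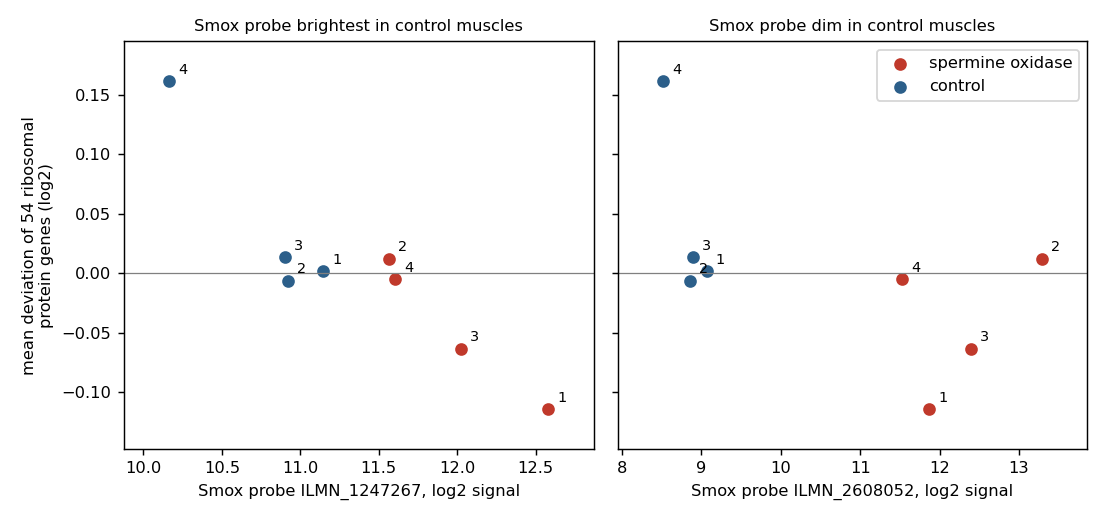
Mean deviation of the 54 members (log2) against the Smox signal (log2) on the probe brightest in control muscles and on a probe dim in control muscles, one point for each muscle with its replicate number. The spermine oxidase muscles fall in reverse order of Smox in one panel and not in the other.

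Markers of macrophages and of fibroblasts both had their lowest mean in spermine oxidase replicate 1 and their highest in control replicate 4, and fibre genes the reverse. The fibre genes deviated by 0.064 in spermine oxidase replicate 1 and by -0.075 in control replicate 4. The macrophage markers measured, 10 of 12 listed, deviated by -0.34, 0.035, -0.0056 and 0.0037 in spermine oxidase replicates 1 to 4, against -0.026, -0.051, 0.069 and 0.32 in control replicates 1 to 4. The mean log2 signal of these markers ran from 10.12 to 10.49 in spermine oxidase muscles and from 10.41 to 10.77 in control muscles. Of the 10, 7 were lower, and Cd163, Itgam and Ptprc were under 9. The markers did not share one direction. C1qa, a complement gene, averaged 10.57 ± 0.31 in spermine oxidase muscles and 11.00 ± 0.06 in control muscles (SD, n = 4 each) and was lower without overlap, by -0.43 ± 0.14 (limma adjusted p = 0.336). Cd163, a scavenger receptor of resident macrophages read near the low end, averaged 8.66 ± 0.08 in spermine oxidase muscles and 8.43 ± 0.06 in control muscles and was higher without overlap, by 0.22 ± 0.04 (limma adjusted p = 0.179).

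Fibroblast markers were lower in 6 of 7 cases, with a mean signal of 11.21 to 11.95 in spermine oxidase muscles and 11.51 to 12.12 in control muscles. They deviated by -0.38 in spermine oxidase replicate 1 and by 0.53 in control replicate 4. Genes of satellite cells and regenerating fibres were lower in 7 of 8 measured of 10 listed, with a median of -0.56. Their mean signal ran from 10.31 to 11.03 in spermine oxidase muscles and from 11.02 to 11.33 in control muscles, and Pax7, Myf5 and Myod1 were under 9. The 8 genes deviated by -0.42, -0.21, -0.58 and 0.13 in spermine oxidase replicates 1 to 4, against 0.28, 0.24, 0.12 and 0.44 in control replicates 1 to 4. Their lowest means were in spermine oxidase replicates 3 and 1, with replicate 3 the lower, and their highest was in control replicate 4. The 54 members also had their lowest means in these replicates, with replicate 1 the lower (-0.115, against -0.064 in replicate 3). Their highest was likewise in control replicate 4 (0.162). Neutrophil markers were near the low end, with 5 of 6 under 9, and so were 5 of 8 lymphocyte markers. The neutrophil mean was lowest in spermine oxidase replicate 3 (-0.085), and the lymphocyte mean was highest in control replicate 3 (0.29). Markers of other cells were mostly higher after spermine oxidase. This held for 6 of 6 endothelial markers, of which Cdh5, Kdr and Tie1 were under 9, with a mean signal of 9.39 to 9.54 in spermine oxidase muscles and 9.29 to 9.35 in control muscles. It held also for 2 of 2 erythroid, 3 of 4 adipocyte and 3 of 4 tendon markers and for the 1 Schwann cell marker measured. The part of these cells in the ribosomal protein differences was not tested.

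Other mRNAs known for a terminal oligopyrimidine tract were lower in 14 of 17 cases, with a median of -0.044 and none at an unadjusted p under 0.05. Among them were Pabpc1, the poly(A)-binding protein (-0.23 ± 0.12), Eef1b2 and Eef1g, subunits of elongation factor 1 (-0.17 ± 0.09 and -0.078 ± 0.042), and the histone chaperone Nap1l1 (-0.14 ± 0.07). Their limma adjusted p-values were 0.540 to 0.566. Eef1a1, Eif3e, Eif3h, Eif4b and Tpt1 lay under 9. Fau, which encodes a small-subunit protein fused to a ubiquitin-like protein and was the 1 measured of 3 ribosomal proteins named otherwise, differed by -0.20 ± 0.11 (limma adjusted p = 0.574).

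Genes of RNA polymerase I and ribosome assembly were evenly split, with 25 of 49 lower and a median of -0.0023. Of the 49, 15 lay under 9. Sbds, which helps to free the large subunit for translation, read 10.93, 11.02, 10.89 and 10.78 in the spermine oxidase muscles, against 11.05, 11.13, 11.07 and 11.08 in the control muscles (-0.18 ± 0.05, limma adjusted p = 0.272). Every control lay above every spermine oxidase muscle. The nucleolar chaperone Npm1 differed by -0.25 ± 0.08 with overlap, while the assembly factors Rcl1 (0.17 ± 0.05) and Noc4l (0.11 ± 0.04) were higher without overlap. Sbds was thus the 1 of 49 separated as lower (2.04%), where 2.51% of all genes were. Rcl1 and Noc4l were the 2 of 49 separated as higher, where 3.66% of all genes were.

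Regulators of ribosomal protein synthesis were also split, with 12 of 24 lower and a median of 0.00073. The list holds both drivers and repressors, so this count and median do not give a direction of regulation. Of the 24, 9 lay under 9. Maf1, the repressor of RNA polymerase III, read 13.02, 12.84, 12.77 and 12.86 in the spermine oxidase muscles, against 12.59, 12.65, 12.75 and 12.65 in the control muscles, a difference of 0.21 ± 0.06 without overlap (limma adjusted p = 0.268). Eef2k, the kinase that inhibits elongation factor 2, was higher by 0.41 ± 0.13 with overlap (limma adjusted p = 0.325). Myc, a driver of ribosome production, lay at the low end at 8.24 in spermine oxidase muscles and 8.30 in control muscles. Rps6ka3, a kinase of the RSK family, differed by -0.10 ± 0.05.

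Mitochondrial ribosomal protein genes, whose ribosomes translate the mRNAs made from mitochondrial DNA, did not share the direction. Of 76, 33 were lower and 43 higher, with a median of 0.030, and 0 passed the adjusted threshold in limma. At an unadjusted p under 0.05 there were 2 lower (2.63%), where 4.72% of all genes were, and 7 higher, where 6.33% of all genes were. The groups did not overlap for 2 of the 76 in the lower direction (2.63%), where 2.51% of all genes were separated. In the higher direction they did not overlap for 5 of the 76, where 3.66% of all genes were separated. Mrpl16 (0.21 ± 0.03), Mrpl14 (0.18 ± 0.04) and Mrps15 (0.23 ± 0.06) were higher, and Mrpl43 was lower (-0.16 ± 0.04), each without overlap. In spermine oxidase replicate 1, where cytosolic members were lowest, the mitochondrial genes were highest, at a mean deviation of 0.11, and in control replicate 4 they were lowest, at -0.080. Their median was -0.0024 without spermine oxidase replicate 1 and -0.00066 without control replicate 4.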

How the data were processed

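Total RNA of 8 muscles was measured on Illumina bead arrays, 1 array each. The deposited values are log2 signals, a scale read from the values, which had nearly the same quantiles on every array, so the authors had normalized between arrays. Which method and background treatment they used is not given in the sources used here. For arrays, the number of arrays limits the precision.

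Of 25697 probes, 23978 had 1 gene in GEO's platform annotation, 0 had several and 1719 had none. Each gene was read from its brightest probe and fitted in limma 3.58.1 (R 4.3.3; lmFit, eBayes, two-sided, Benjamini-Hochberg over 16593 genes, threshold 0.05), spermine oxidase against control, without a replicate block. Single values were also compared by exact permutation over 70 splits. The fit was tested on simulated data. Groups came from the titles.

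The members, lists and tests were chosen with earlier results of these data known. Named were Smox, paralogs and their main genes, 10 further members of interest, the 8 lowest and 6 highest differences, separated members, 3 members with probes of opposite sign and the 4 smallest p-values of each list. Rpl23, Rpl31, Rpl35, C1qa, Cd163, the signal levels and the motifs were chosen after values were seen. Alternatives were other normalizations, probe filters, probe summaries, variance models, an offset, the replicate block and leaving out muscles. Plots used matplotlib 3.10.9 (Python 3.11.15).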

Additional observations from a re-analysis of the deposited data

Results flagged for a closer look

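In 6 of 70 groups of 4 muscles examined, 1 muscle lay so far from the other 3 that its gap to the nearest exceeded Dixon's critical share of the range, where chance marks about 5% of groups. Spermine oxidase replicate 1 was the muscle set apart for Rps16 (13.12, the others 13.37 to 13.40), Rpl27 (13.66, the others 13.85 to 13.89), Rplp2 (8.16, the others at 8.20, at the low end of the scale) and the Rpl22l1 signal minus the Rpl22 signal (-2.39, the others -2.13 to -2.11). Control replicate 4 was the muscle set apart for Rps6 (12.50, the others 12.10 to 12.14) and for the mean deviation of the 66 members (0.13, the others -0.0032 to 0.011). In each of the 3 cases of a bright lower member, Rps6, Rpl27 and Rps16, the muscle set apart widened the difference between the groups. These 3 are among the 8 lowest differences, so this direction follows in part from how members were chosen. Members varied together, so the 70 groups are not independent and the 5% is only a rough reference.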

How the results depend on the processing

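The median of the 66 members stayed below 0 under every alternative run, at -0.080 to -0.030 when 1 muscle was left out and at -0.017 without both control replicate 4 and spermine oxidase replicate 1, and quantile, median and loess normalization gave -0.055, -0.061 and -0.073. The share of lower members was 68.2% to 81.8% with 1 muscle left out and 57.6% without both. Genes past the adjusted threshold in limma numbered 0, but 8 with an intensity trend and robust prior, 1 with an offset of 16 on the linear scale and 0 to 14 with 1 muscle left out (14 without spermine oxidase replicate 2), and none of these alternatives called a member. Lower members with an unadjusted p under 0.05 numbered 9, but 2 with the offset and 4 to 15 with 1 muscle left out (4, 15 and 5 without spermine oxidase replicates 1, 2 and 3). Under a replicate block, limma passed 266 genes, with 0 members and with Smox (adjusted p = 0.041) among them, and 14 lower members had an unadjusted p under 0.05. The shares of all genes at that unadjusted threshold under the block and the other alternatives are not given here. These counts of members therefore cannot be read as a stronger or weaker result of the family. Equal numbers deviated together for replicates 1, 3 and 4 (correlations of 0.60, 0.67 and 0.60) but not for replicate 2 (-0.14), which correlated best with control replicate 3. The labels do not say whether the numbers pair the muscles, which were treated as unpaired, and this is not settled. The Rpl3l shift against Rpl3 was 0.33 to 0.59 with 1 muscle left out, and without control replicate 1 (0.59) its exact permutation p was 0.0286, and it was 0.20 without both muscles. The median of the regulators was -0.0027 to 0.022 with 1 muscle left out. Among members and pairs, signs turned for values near 0. Without both muscles these were Rpl39 (0.049), Rps27 (0.0018; -0.11 to -0.033 with 1 left out), Rplp1 (0.0081; -0.049 to -0.0063 with 1 left out), Rps23rg1 (-0.017) and the shifts of Rpl36al (-0.016; 0.043 to 0.19 with 1 left out), Rpl39l (-0.048) and Rps27l (-0.021). Rps24 turned with the mean of its probes (-0.047), Rpl39l with array weights (-0.0010) and the Rpl22l1 shift with loess (0.00019). With 1 muscle left out, the ranges that crossed 0 were Rpl22 (-0.13 to 0.013), Rpl39 (-0.087 to 0.0027), Rpl39l (-0.0050 to 0.0063), Rps19bp1 (-0.037 to 0.0083, and -0.057 without both), Rps23rg1 (-0.0060 to 0.042) and the shifts of Rpl22l1 (-0.069 to 0.093), Rpl39l (-0.0018 to 0.093) and Rps27l (-0.020 to 0.062). The causes were not tested. Probes near the low end or the top of the scale may understate differences, which was not tested either.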
